A study of Mus musculus with 12 samples.

Results

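The Iroquois genes encode homeobox transcription factors of the TALE class, named for a loop of extra residues in the homeodomain. Irx1, Irx2, Irx3, Irx4 and Irx5 were followed in the ventricles of wild-type and Nos3-deficient mouse embryos. The members were the probe sets whose only gene symbol in the platform annotation was one of these names. All 5 genes were found, each with 1 probe set, among 18194 named genes and 45101 probe sets in all, and the rule itself uses names only.

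Iroquois factors bind DNA and often repress their targets, and in the mouse they lie in a pair of gene clusters, with Irx1, Irx2 and Irx4 on chromosome 13 and Irx3, Irx5 and Irx6 on chromosome 8. In the mouse heart Irx4 marks ventricular muscle, where it helps keep atrial genes off. Irx3 is known from trabecular muscle and the ventricular conduction system, where it raises Gja5 and lowers Gja1, both genes for gap junction proteins. Irx5 sets the gradient of repolarization across the ventricular wall by repressing the potassium channel gene Kcnd2. Irx1 and Irx2 are known from the ventricular septum and its trabeculae.

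RNA came from left or right ventricles cut from embryos at 14.5 days post coitum, each sample a pool of 15 to 30 embryos, and 100 ng of it was labelled for an Affymetrix array. The 4 groups of 3 pools were the left and the right ventricle of wild-type CD1 embryos (WT) and the left and the right ventricle of Nos3-/- embryos of strain B6.129P2-Nos3tm1unc/J (KO). Nos3 encodes the nitric oxide synthase of endothelium. The labels give no treatment and no tissue restriction of the allele. CD1 is an outbred stock and the KO strain has another genetic background, so the allele and the strain, including sequence differences under a probe, cannot be told apart in any KO to WT comparison here. The samples are whole ventricle, in which fewer cells of a type and less RNA per cell cannot be told apart either.

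The values are RMA expression levels on a log2 scale, and levels were not compared between genes, since each probe set has its own response. A gene was called different where limma's adjusted p-value (Benjamini-Hochberg over the 18194 genes) was under 0.05, and these p-values measure the spread between pools. For Nos3 the left-ventricle arrays gave 8.36, 8.39 and 8.30 (WT) against 7.95, 8.02 and 7.86 (KO), and the right-ventricle arrays 8.72, 8.94 and 8.37 (WT) against 8.23, 8.04 and 7.77 (KO). Its KO arrays lay below its WT arrays in either ventricle, with a KO minus WT difference of -0.41 on the left (limma adjusted p = 0.0376) and -0.66 on the right (limma adjusted p = 0.00983). The right-ventricle call was kept under 28 of 28 other settings. The left-ventricle adjusted p stayed under 0.05 in 19 of them. Among these 19 are the threshold of 0.01 and the difference of at least 0.5, whose own rules its values did not pass. Without any 1 of the 6 left-ventricle arrays the call was lost (limma adjusted p from 0.0582 to 0.114). The left-ventricle difference itself stayed between -0.445 and -0.365 in those repeats. The exact permutation p was 0.1 in each ventricle, the smallest that 3 against 3 arrays allow. The sources used here do not say whether its probes lie within the part of the gene that the allele disrupts. The 12 cardiomyocyte markers averaged between 12.89 and 13.40 on every array, against a median of 5.67 over all values. The 3 WT left ventricles and WT right ventricle replicate 3 stood apart in the Affymetrix poly-A controls, bacterial transcripts added to a sample before labelling, whose 24 probe sets averaged 8.89 to 8.96 on these 4 arrays and 7.35 to 8.47 on the other 8.

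Upstream sequence is shown for Irx3, the member with the largest genotype difference. RefSeq windows (build GRCm38.p6) were matched for 3 of the 5 members, Irx2, Irx3 and Irx4, and those of Irx2 and Irx4 lie within the annotated span of the gene, so they are not shown. The sequence is the 250 bases before the start site of that table, 5′ to 3′, with CpG dinucleotides in capitals, read from chr8:91801655-91801904 on the minus strand.
Irx3: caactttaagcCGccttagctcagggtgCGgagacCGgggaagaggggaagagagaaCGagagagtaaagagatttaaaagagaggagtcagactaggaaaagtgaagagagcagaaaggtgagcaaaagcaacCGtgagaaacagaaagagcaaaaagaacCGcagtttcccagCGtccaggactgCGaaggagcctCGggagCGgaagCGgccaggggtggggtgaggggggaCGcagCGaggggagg
It held 13 CpG dinucleotides, against a median of 6 over 32851 such windows. Purines made up 73.6% of it, a higher share than in 99.8% of the windows. The letters of 5 motifs were searched on both strands, and 0 of the 5 were found in it: the Iroquois motif ACANNTGT (present in 6.31% of all windows), the T-box motif AGGTGT (11.8%), the Nkx2-5 motif TNAAGTG (10.1%), the GATA motif AGATAA (9.99%) and the E-box CACGTG (6.02%). These counts describe the letters of the window only.

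The first question was how the Iroquois genes differ between KO and WT in the left ventricle. Irx3, Irx4 and Irx5 rose, Irx3 by 2.45-fold and Irx4 and Irx5 by about 1.5-fold, while Irx1 and Irx2 were not called. That is 3 of 5 members, beside 30.9% of all genes called in this comparison and 18.6% called higher, so a call by itself is common here. Over all genes the median difference was -0.01 and the median absolute difference 0.19.

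**Figure D1:**
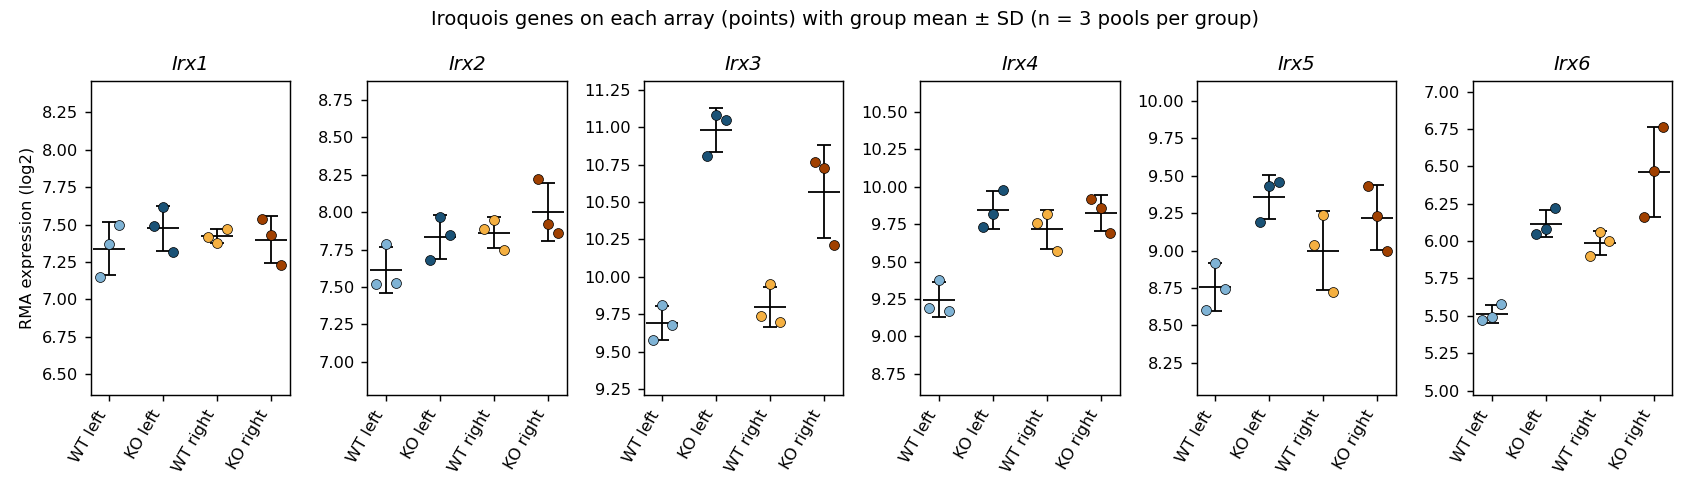
RMA expression (log2) of Irx1 to Irx5 and of Irx6 on each array, by group, with the group mean and SD (n = 3 pools). All panels span the same number of log2 units. The Irx3 arrays of KO lie above all Irx3 arrays of WT in both ventricles, and the Irx1 groups overlap.

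For Irx3, the conduction-system factor, the WT arrays gave 9.58, 9.81 and 9.68, and the KO arrays gave 10.81, 11.08 and 11.05. The lowest KO array was thus 1.00 above the highest WT array. The KO minus WT difference was 1.29 (SE 0.14, 95% interval 0.99 to 1.59, limma adjusted p = 4.59e-05), and 97 of the 18194 genes had a larger rise.

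The WT arrays of Irx4, the ventricular muscle factor, stood at 9.19, 9.38 and 9.17, and the KO arrays at 9.73, 9.82 and 9.98. All 3 KO arrays were above all 3 WT arrays. Its difference was 0.60 (SE 0.10, 95% interval 0.37 to 0.82, limma adjusted p = 0.00104), a fold of 1.51.

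Irx5, the repolarization-gradient factor, had WT levels of 8.60, 8.92 and 8.74 and KO levels of 9.19, 9.43 and 9.46, again without overlap. The difference was 0.61 (SE 0.14, 95% interval 0.30 to 0.92, limma adjusted p = 0.00639), a fold of 1.52. Absence of overlap between 3 and 3 arrays was itself frequent in this comparison, at 44.4% of all genes in either direction and 23.8% with KO higher.

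Irx2 had WT levels of 7.52, 7.79 and 7.53 and KO levels of 7.68, 7.97 and 7.85. The groups overlapped, and the difference of 0.22 did not pass the test (95% interval -0.03 to 0.47, limma adjusted p = 0.175). Irx1 had WT levels of 7.15, 7.37 and 7.50 and KO levels of 7.49, 7.62 and 7.32, with overlap. Its difference of 0.14 was not called (95% interval -0.11 to 0.38, limma adjusted p = 0.391).

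The 3 WT left ventricles are also the 3 left-ventricle arrays with high poly-A controls. With the control level of each array as a term in the fit, 2 of the 5 genes were still called: the left-ventricle difference was 1.11 for Irx3 (limma adjusted p = 0.00123), 0.49 for Irx4 (limma adjusted p = 0.0212) and 0.38 for Irx5 (limma adjusted p = 0.116), with 9.74% of all genes called higher. With a term that marks the 4 high-control arrays, a choice made after seeing the data, 0 of the 5 were called by limma, at 1.15 for Irx3 (limma adjusted p = 0.0548), 0.38 for Irx4 (limma adjusted p = 0.376) and 0.19 for Irx5 (limma adjusted p = 0.799). In that fit 2 of the 5 members had an unadjusted p under 0.05, and 1.08% of all genes were called. This fit estimates the control effect from WT right ventricle replicate 3 alone. On that array Irx3 (9.70) and Irx5 (8.72) lay within the range of the WT left ventricles, and Irx4 (9.57) lay above all 3 of them. On WT right ventricle replicate 1, with a control level of 8.05, Irx3 (9.74) also lay within that range. Irx5 (9.04) and Irx4 (9.76) of replicate 1 lay above it.

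The level of nuclear RNAs was spread more widely on the left than on the right, and WT and KO overlapped there. A genotype difference in it was not tested. The mean level of Malat1, Meg3, Kcnq1ot1 and Airn, 4 RNAs kept in the nucleus, was 10.91, 11.26 and 10.02 on the WT left arrays and 10.31, 10.25 and 8.64 on the KO left arrays, while the 6 right-ventricle arrays lay between 9.83 and 10.30. Without the highest and the lowest of these arrays, WT left replicate 2 and KO left replicate 3, the left-ventricle difference was 1.32 for Irx3 (limma adjusted p = 0.00122), 0.60 for Irx4 (limma adjusted p = 0.00924) and 0.64 for Irx5 (limma adjusted p = 0.0324), so all 3 calls were kept.

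**Figure D2:**
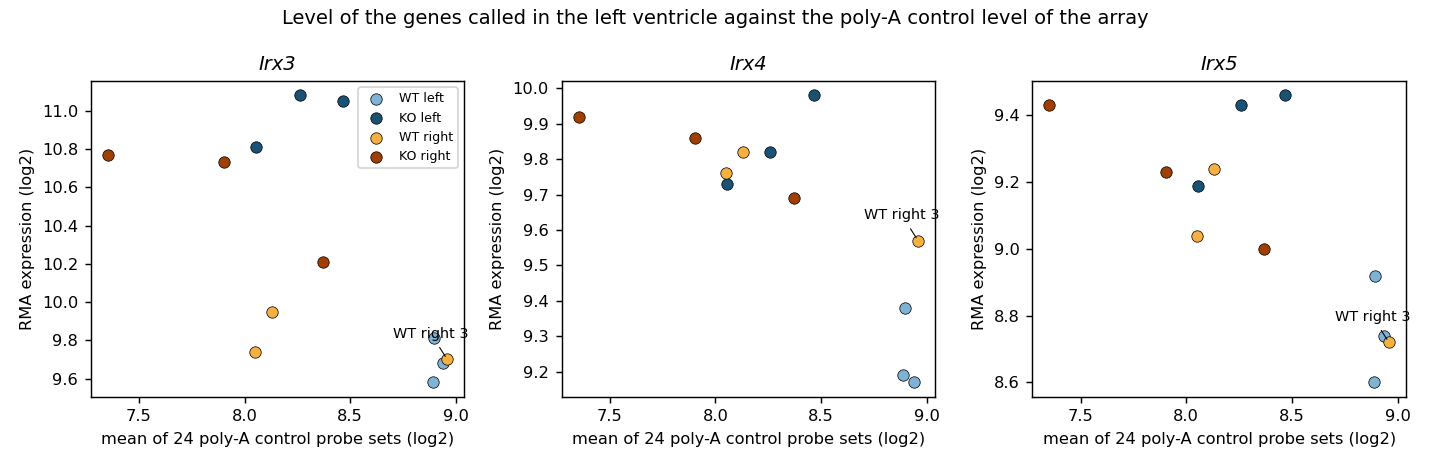
Level of Irx3, Irx4 and Irx5 on each array (RMA expression, log2) against the mean of the 24 poly-A control probe sets (log2), 1 point per array. The WT left arrays and WT right replicate 3 sit at control levels of 8.89 to 8.96. Irx3 of WT right replicate 3 lies among the WT left arrays, as does that of WT right replicate 1 at a control level of 8.05.

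In the right ventricle the same genotypes gave a call for Irx3 only, 1 of 5 members, beside 8.19% of all genes called and 4.61% called higher. Irx3 rose by 1.71-fold there. Whether the genotype difference is unequal between the ventricles is taken up after these values.

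Levels of Irx3 on the right were 9.74, 9.95 and 9.70 for WT and 10.77, 10.73 and 10.21 for KO. The lowest KO array, replicate 3, was 0.26 above the highest WT array, and 29.4% of all genes had no overlap in this comparison. The difference was 0.77 (SE 0.14, 95% interval 0.47 to 1.07, limma adjusted p = 0.00426). It was 0.64 with the poly-A control level as a term (limma adjusted p = 0.0298, with 2.64% of all genes called higher) and 0.73 without WT right ventricle replicate 3 (limma adjusted p = 0.0187, with 3.06% called higher).

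Levels of Irx4 were 9.76, 9.82 and 9.57 for WT and 9.92, 9.86 and 9.69 for KO. These groups overlapped, with a difference of 0.11 (95% interval -0.12 to 0.33, limma adjusted p = 0.543). Those of Irx5 were 9.04, 9.24 and 8.72 for WT and 9.43, 9.23 and 9.0 for KO, also with overlap, and its difference of 0.22 was not called (95% interval -0.09 to 0.53, limma adjusted p = 0.352).

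Levels of Irx2 were 7.89, 7.95 and 7.75 for WT and 8.22, 7.92 and 7.86 for KO. Only KO replicate 1 exceeded every WT array, and the difference was 0.14 (95% interval -0.12 to 0.39, limma adjusted p = 0.486). Those of Irx1 were 7.42, 7.38 and 7.47 for WT and 7.54, 7.43 and 7.23 for KO, spread on both sides of WT. Its difference was -0.02 (95% interval -0.27 to 0.22, limma adjusted p = 0.918).

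**Figure D3:**
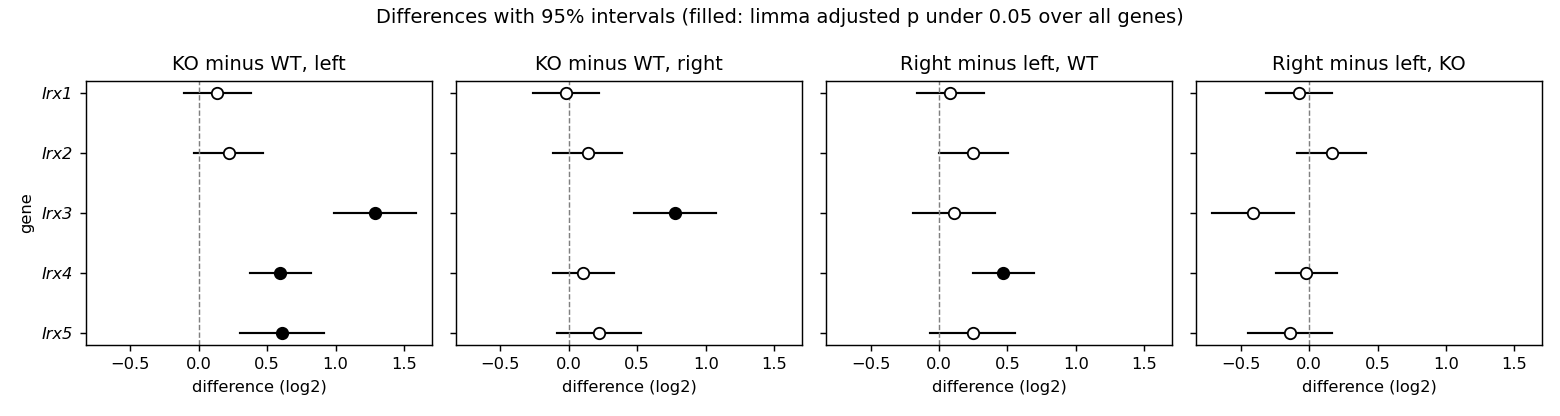
Difference of each Iroquois gene (log2, x axis) in 4 comparisons with its 95% interval, filled where limma's adjusted p over all genes was under 0.05. Irx3 is filled in both genotype panels, Irx4 in the left-ventricle genotype panel and in the WT ventricle panel, and Irx5 in the left-ventricle genotype panel.

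The genotype difference was then compared between the ventricles by the interaction term. None of the 5 members was called by limma (0 of 5, beside 0.022% of all genes, which is 4 genes), and 2 of the 5, Irx3 and Irx4, had an unadjusted p under 0.05. All 5 estimates, taken as the right-ventricle minus the left-ventricle effect, were below 0, as was the median of all genes at -0.06. Irx3 gave -0.52 (95% interval -0.94 to -0.09, limma adjusted p = 0.314) and Irx5 gave -0.39 (95% interval -0.82 to 0.05, limma adjusted p = 0.393). For Irx4 the estimate was -0.49 (95% interval -0.80 to -0.18, limma adjusted p = 0.314). Without WT right ventricle replicate 3 the Irx4 estimate was -0.56 and was called (limma adjusted p = 0.0388), with 4.45% of all genes called lower. With all 12 arrays and array weights it was -0.46 and was also called (limma adjusted p = 0.0457), with 1364 of the 18194 genes called. The call was thus made in 2 of 27 other settings, and in both a call was far more common than in the fit reported.

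Right and left ventricle were next compared within each genotype. In WT, Irx4 was higher in the right ventricle by 0.47 (SE 0.10, 95% interval 0.25 to 0.69, limma adjusted p = 0.0499), a fold of 1.39, from 9.17 to 9.38 on the left and 9.57 to 9.82 on the right without overlap, as in 15.7% of all genes. It was the only called member, 1 of 5, beside 0.984% of all genes called. The call sits at the threshold and was kept under 8 of 28 other settings, with adjusted p-values from 0.00849 to 0.409. Array weights gave the lowest of these, and there 2212 of the 18194 genes were called. Without WT right ventricle replicate 3, where the call was also kept, 1734 were. It was lost with the poly-A control level as a term, at a difference of 0.38 (limma adjusted p = 0.239, with 0.297% of all genes called higher). The other 4 differences in WT were 0.08 for Irx1, 0.25 for Irx2, 0.11 for Irx3 and 0.25 for Irx5, with limma adjusted p-values from 0.299 to 0.739.

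In KO, 0 of the 5 members were called by limma between the ventricles, beside 1.14% of all genes, and 1 of them, Irx3, had an unadjusted p under 0.05. The Irx3 arrays of the KO right ventricle (10.21 to 10.77) all lay below those of the KO left ventricle (10.81 to 11.08), by a gap of 0.04, and 19.7% of all genes had no overlap there. The difference of -0.41 was not called (95% interval -0.71 to -0.11, limma adjusted p = 0.259). For Irx4, the member called in WT, the right minus left difference in KO was -0.02 (95% interval -0.24 to 0.20, limma adjusted p = 0.975).

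The order of the 4 group means was the same for Irx3, Irx4 and Irx5: WT left lowest, then WT right, KO right and KO left. For Irx3 the means were 9.69 ± 0.12, 9.80 ± 0.13, 10.57 ± 0.31 and 10.98 ± 0.15 (SD, n = 3), and of the neighbouring steps the one from WT right to KO right was called. For Irx4 they were 9.25 ± 0.12, 9.72 ± 0.13, 9.82 ± 0.12 and 9.84 ± 0.13 (SD, n = 3), so that WT left stood below 3 groups whose ranges overlap. For Irx5 they were 8.75 ± 0.16, 9.0 ± 0.26, 9.22 ± 0.22 and 9.36 ± 0.15 (SD, n = 3), with overlap between each group and the next. Irx2 ran from 7.61 ± 0.15 in WT left to 8.0 ± 0.19 in KO right (SD, n = 3), with KO left (7.83 ± 0.15) and WT right (7.86 ± 0.10) between them. Irx1 stayed between 7.34 ± 0.18 and 7.48 ± 0.15 (SD, n = 3), and all of its groups overlapped. Over the 12 arrays the range was 1.5 for Irx3, 0.86 for Irx5, 0.81 for Irx4, 0.70 for Irx2 and 0.47 for Irx1.

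Within a group the members tended to share their low arrays. Replicate 3 was the lowest array of the KO right ventricle for all 5 members and of the WT right ventricle for Irx2, Irx3, Irx4 and Irx5, and these 2 arrays had the highest poly-A control level of their groups, 8.37 and 8.96. On the left it was replicate 1, lowest in WT for Irx1, Irx2, Irx3 and Irx5 and in KO for Irx2, Irx3, Irx4 and Irx5, and these 2 arrays had the lowest poly-A control level of their groups, 8.89 and 8.06. Low members thus went with high controls on the right and with low controls on the left, where the WT arrays spanned only 8.89 to 8.94.

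Since an array's own shift enters every member on it, the members were also set against each other within arrays, a comparison chosen after seeing the data. It compares differences of separate probe sets, which can respond unequally to the same change in RNA, so it describes the measured differences and not fold changes of RNA. For each of 10 pairs the difference between the genes was taken on every array and compared between genotypes within ventricle, and between ventricles within genotype, by a two-sided exact permutation test over 400 relabelings, with adjustment over the 20 tests. The measured KO minus WT difference of Irx3 exceeded that of Irx4 by 0.68 and that of Irx5 by 0.62, and in the pairs coded the other way Irx1 minus Irx3 was -0.98 and Irx2 minus Irx3 was -0.85. Each of these had an exact permutation p of 0.005, the smallest possible, and an adjusted p of 0.0167.

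That test takes left and right arrays as independent, and arrays of one genotype and number may come from the same embryos. With the ventricles of one number relabelled together, each of these 4 pairs had an exact permutation p of 0.1, the smallest that 20 relabelings allow, and an adjusted p of 0.143, so none was called. Irx4 and Irx5 did not pass the test with independent arrays against each other, with an Irx4 minus Irx5 difference of -0.06 (exact permutation p = 0.335, adjusted p = 0.372). Irx1 minus Irx4 was -0.30 and Irx1 minus Irx5 was -0.36, each at an exact permutation adjusted p of 0.0375 with independent arrays and of 0.143 with linked ones. Right minus left, Irx3 minus Irx4 was -0.38 and Irx2 minus Irx3 was 0.36, with an exact permutation adjusted p of 0.0167 for independent arrays. Relabelled together, both had an exact permutation p of 0.0312, the smallest that 64 relabelings allow, and an adjusted p of 0.143. Here too no pair could be called after adjustment.

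**Figure D4:**
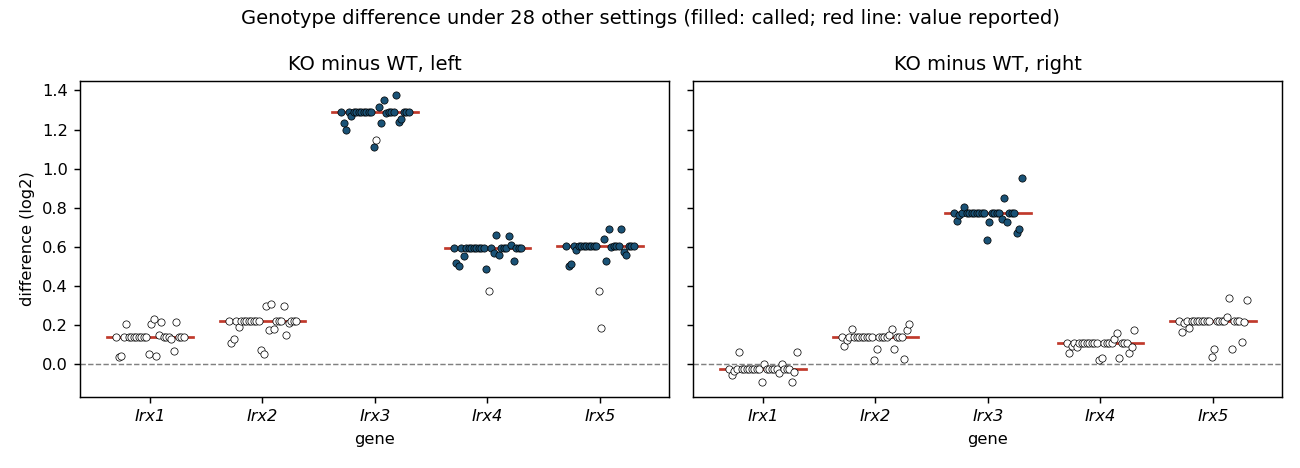
KO minus WT difference of each member (log2, y axis) in the left and the right ventricle under 28 other settings, 1 point per setting, filled where called, with a red line at the value reported. Irx3 is filled in 27 settings on the left and 28 on the right, and all left-ventricle points are above 0.

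Irx6, the remaining gene of the chromosome 8 cluster and no member of the set, had 1 probe set, with left-ventricle levels of 5.47, 5.49 and 5.58 for WT and 6.05, 6.08 and 6.22 for KO. Right-ventricle levels were 5.90, 6.06 and 6.0 for WT and 6.16, 6.47 and 6.76 for KO. KO was higher without overlap in both, by 0.60 on the left (limma adjusted p = 0.00281) and 0.48 on the right (limma adjusted p = 0.0312). The right-ventricle call was kept under 17 of 28 other settings. The levels lie near the median of all values, and KO right ventricle replicate 3, the lowest of its group for Irx1 to Irx5, was the highest for Irx6.

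Other TALE homeobox genes include the Meis and Pbx cofactors of Hox proteins. Of 12 measured, 4 rose and 0 fell in the KO left ventricle, beside 18.6% of all genes called higher. The median difference was 0.20 against -0.01 over all genes. With the poly-A control level as a term 4 rose, beside 9.74% of all genes. In the fit without that term these were Irx6, Pbx3 (0.59, limma adjusted p = 0.000533), Pknox2 (0.57, limma adjusted p = 0.00873) and Meis2 (0.52, limma adjusted p = 0.000721). Probe sets disagreed for Meis2, whose other sets gave 0.34, 0.57 and -1.18, and for Pknox2, whose other set gave -0.20. In the right ventricle 2 of 12 rose, Irx6 and Meis2 (0.41, limma adjusted p = 0.00991), beside 4.61% of all genes called higher. Meis2 was also the single TALE relative called between ventricles in each genotype, higher on the right by 0.60 in WT and 0.49 in KO. Its other sets disagreed in WT, at 0.56, 0.71 and -0.60, and gave 0.56, 0.55 and 0.88 in KO. Of all genes 0.984% were called between ventricles in WT and 1.14% in KO.

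**Figure D5:**
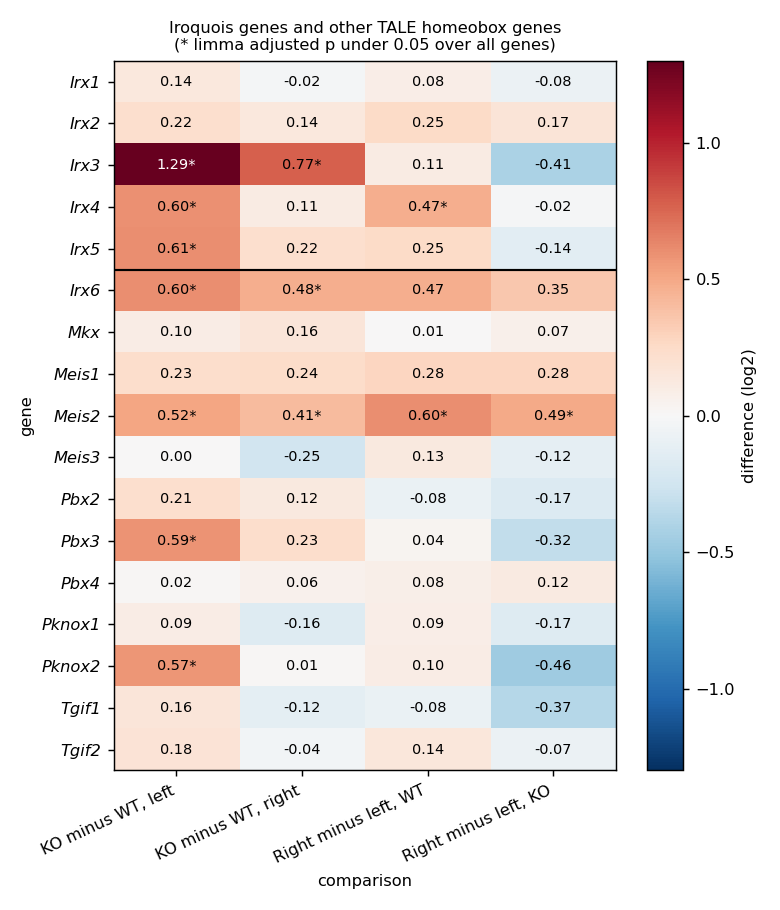
Differences (log2, colour and number) of Irx1 to Irx5, above the line, and of 12 other TALE homeobox genes, below it, in the 2 genotype and the 2 ventricle comparisons. A star marks limma's adjusted p under 0.05. The value of 1.29 for Irx3 is the largest shown.

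Partners and reported targets of Iroquois factors were read beside the members. Of 15 measured, 10 rose and 1 fell in the KO left ventricle (median 0.43), beside 18.6% of all genes called higher. With the poly-A control level as a term 5 rose and 0 fell, beside 9.74%, and in the right ventricle 2 rose, beside 4.61%. The largest rise was that of Myh6, the alpha myosin heavy chain, by 1.76 on the left (limma adjusted p = 4.66e-05) and 1.33 on the right (limma adjusted p = 0.000871). Gja5, which Irx3 raises, rose by 0.77 on the left (limma adjusted p = 0.0132) and had a difference of -0.17 on the right. Its means were 5.27 ± 0.13 in WT left, 6.04 ± 0.60 in KO left, 4.89 ± 0.12 in WT right and 4.72 ± 0.12 in KO right (SD, n = 3). These levels lie near or under the median of 5.67 over all values, and KO left was the most scattered group. Gja1, which Irx3 lowers, rose by 0.30 on the left (limma adjusted p = 0.046). Kcnd2, the target that Irx5 represses, rose by 0.52 on the left (limma adjusted p = 0.0184), but its other 3 probe sets gave 0.10, 0.16 and -0.24. Kcna5, another potassium channel gene, rose by 0.76, and Kcnip2, which encodes a partner of Kcnd2 channels, fell by 0.56 (limma adjusted p = 0.0136), while its other 2 sets gave 0.03 and 0.12. Smyd1, the cofactor of Irx5 at Kcnd2, had a difference of 0.28 and was not called (limma adjusted p = 0.3), and Hand1, reduced in the ventricles of Irx4-deficient mice, had a difference of 0.03 (limma adjusted p = 0.9).

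Between ventricles, 2 of these 15 genes were lower on the right in WT and 3 in KO, beside 0.984% and 1.14% of all genes called in either direction. Nppa, the atrial natriuretic peptide gene, was lower by -0.59 in WT and -0.61 in KO, and the chemokine gene Cxcl12, which Irx5 represses in Xenopus embryos, by -0.50 in WT and -0.99 in KO. Gja5 was lower by -1.32 in KO and had a difference of -0.38 in WT, and its interaction was not called (limma adjusted p = 0.314).

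Muscle layers and lineages were read the same way, again beside 18.6% of all genes called higher on the left and 9.74% with the poly-A control level as a term. On the right these shares were 4.61% and 2.64%. Of 8 compact myocardium genes, 8 rose in the KO left ventricle (median 0.65), led by Tbx20 (0.95), Prdm16 (0.93) and Ccnd2 (0.83), and 3 rose on the right. With the control term 4 of the 8 rose on the left and 0 on the right. Other probe sets gave, on the left, 0.06 and 1.07 for Tbx20 and 0.21, 0.78 and 1.3 for Prdm16. They were below 0 for Mycn (-0.28 and -0.23, the set used 0.45) and Fgfr2 (-0.09 and -0.08, the set used 0.45). For Fgfr1 they gave 0.07 and 0.13 (the set used 0.80), and for Ccnd1 and Ccnd2 all were above 0. Of 15 trabecular and conduction genes 6 rose and 1 fell on the left, where Slit2 gave 1.64 (its other sets 1.23 and -0.46) and Kcne1 -0.34 (its other set 0.41). With the control term 3 rose and 0 fell. Of 15 cardiac transcription factors 6 rose and 1 fell, among them Tbx5 with 0.54 (its other set -0.02) and Hey1 with -0.40. Nkx2-5 (-0.03), Gata4 (0.31) and Hand2 (0.20) were not called, and 4 of the 15 rose and 1 fell with the control term. Ventricular identity genes gave 3 of 7 risen, with Myl2 at 0.01, and atrial genes 5 of 10, with Myl7 at 0.09, and with the control term 2 of each list rose. Cardiomyocyte markers gave 3 of 12 risen and 0 fallen, and 1 risen with the control term.

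Markers of other cell types moved on the same arrays, where 30.9% of all genes were called on the left and 8.19% on the right in either direction. Of 12 endothelial and endocardial genes 8 rose and 2 fell in the KO left ventricle (median 0.68), led by Nfatc1 (1.24), Cdh5 (1.08, its other set 0.08) and Npr3 (0.98). The 2 that fell were Cytl1 (-1.48, limma adjusted p = 2.48e-06) and Egfl7 (-0.69, limma adjusted p = 0.0237). With the control term 6 rose and 1 fell, and in the right ventricle 2 rose and 1, Cytl1, fell (0 and 1 with the term). Their summed level, as log2 of the summed linear values, was 12.70 to 12.77 in the WT left ventricles and 13.15 to 13.26 in KO, with none of the 12 averaging below 5.67. Epicardial and mesenchymal genes gave 3 risen and 2 fallen of 13, erythroid genes 2 and 1 of 7, and neural genes 1 and 0 of 6, and with the control term these were 3 and 1, 0 and 0, and 0 and 0.

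The lung, which borders the heart and expresses several Iroquois genes, was read through 14 genes of lung and other epithelium. On the left 3 rose and 2 fell, beside 30.9% of all genes called there in either direction. Those that rose were the keratin genes of simple epithelium, Krt19 (1.04, limma adjusted p = 7.23e-05), Krt8 (0.51, limma adjusted p = 0.0147) and Krt18 (0.43, limma adjusted p = 0.00854). The same 3 rose on the right, by 1.24, 0.76 and 0.64, beside 4.61% of all genes called higher there. With the control term 3 rose in each ventricle. The surfactant genes Sftpb (-0.55, limma adjusted p = 0.00487) and Sftpc (-0.30, limma adjusted p = 0.0384, its other set -0.03) fell on the left. Nkx2-1, which defines lung epithelium, had a difference of -0.17 there and was not called. Liver genes gave 0 risen and 2 fallen of 8, with and without the control term, and their summed level ran from 10.19 to 12.26 in the WT left ventricles and from 8.77 to 10.01 in KO. The part of these cell types in the Iroquois differences was not tested.

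The chromosome neighbours of both clusters were taken from the gene order of RefSeq. Around Irx3, Irx5 and Irx6, 4 of 11 measured genes rose in the KO left ventricle and 0 fell. With the poly-A control level as a term 2 rose, beside 9.74% of all genes called higher. Fto, whose introns hold enhancers that reach Irx3, rose by 0.72 (limma adjusted p = 0.000988), Mmp2, a matrix metalloproteinase gene, by 0.67 (limma adjusted p = 0.00442), Lpcat2 by 0.44 (limma adjusted p = 0.00643), with another set at -0.32, and Crnde by 0.42 (limma adjusted p = 0.0495). In the right ventricle 0 of these 11 were called by limma and 2 had an unadjusted p under 0.05, and Fto gave 0.40 (limma adjusted p = 0.0606). Around Irx1, Irx2 and Irx4, 0 of 10 measured genes were called by limma in either genotype comparison, and 3 had an unadjusted p under 0.05 in each. Against the 30.9% of all genes called on the left and 8.19% on the right, these counts describe the neighbourhoods and single out neither. The difference between the neighbourhoods was not tested.

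The genes most like each called member were those with the smallest root mean square difference of centred log2 values over the 12 arrays, among 11353 genes above the median level. For Irx3 they were Pde3b (0.144), a phosphodiesterase gene, Dusp7 (0.162), a phosphatase gene, and Tedc1 (0.175), against a median of 0.563. For Irx4 they were Bscl2 (0.077), Washc5 (0.083) and Rnf185 (0.084), against a median of 0.291. For Irx5 they were the forkhead gene Foxp1 (0.089), Washc5 (0.095) and Sidt2 (0.095), against a median of 0.308. Washc5 was thus near both Irx4 and Irx5, and among the same genes Irx4 ranked 66 for Irx5 and Irx5 ranked 101 for Irx4. Irx3 stood farther off: Irx5 ranked 590 and Irx4 ranked 1442 in its order.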

How the data were processed

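The deposited values are log2 expression levels that the authors made with RMA, per the submitters' processing notes. RMA corrects background, brings all arrays to a common distribution and summarises the probes of a set, so a change common to most genes would be removed. The precision is limited by the number of arrays. No scanner files and no detection calls were used here. No dim genes were left out. Each of the 12 columns was matched to its sample by the labels, with 0 columns unused. Of 45101 probe sets, 34958 had 1 symbol, 932 several and 9211 none. For genes with several sets the one with the highest mean was used.

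One limma model (lmFit and eBayes, limma 3.58.1 in R 4.3.3) with a mean per group gave 5 comparisons, with Benjamini-Hochberg adjustment over 18194 genes. The fit was tested on simulated data. Python 3.11.15, pandas 2.3.3 and matplotlib 3.10.9 made tables and figures. The members, the gene lists and the tests were chosen with earlier results of these data known. Genes to name were chosen by size, up to 3 called genes per list, direction and comparison, plus genes fixed by name. Not all of these are given. Called genes of the epicardial and mesenchymal, erythroid, neural and liver lists are left unnamed, as is Hdac1 among the reported targets. Meis2 and Crnde, which complete small counts, and the values given beside them for other probe sets were chosen after they were seen.

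Replicate numbers were checked for pairing by the correlation of deviations from the group means. Same-numbered arrays gave 0.21, 0.291 and 0.265 between the KO ventricles, and arrays of unlike number -0.276 to 0.016. Between the right ventricles these were 0.111, 0.262 and 0.306, against -0.252 to 0.085. For the WT ventricles they were 0.231, -0.008 and 0.145, against -0.19 to 0.01. The left ventricles gave 0.011, 0.144 and 0.423, against -0.332 to 0.264. With 3 arrays per group these values cannot settle whether the numbers pair. WT and KO arrays come from different embryos, so no pairing by embryo is possible between genotypes.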

Additional observations from a re-analysis of the deposited data

How the results depend on the processing

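Across 28 other settings the left-ventricle genotype difference was called in 27 for Irx3 (1.11 to 1.38), 27 for Irx4 (0.38 to 0.66) and 26 for Irx5 (0.19 to 0.69), and the right-ventricle difference of Irx3 in 28 (0.64 to 0.95). The term marking the high-control arrays, added after seeing the data, took the left-ventricle count from 3 to 0. The right minus left count in WT, 1 in the fit reported, was 0 after quantile normalization again, array medians subtracted, every probe set on its own, a threshold of 0.01, a difference of at least 0.5, the 2 groups alone, the poly-A control term, the term for high-control arrays, and without the arrays of extreme nuclear RNA. Leaving out 1 array it ran from 0 to 1 (1 only without WT right ventricle replicate 3, where 1734 of the 18194 genes were called). The interaction count was 1 with array weights, for Irx4, where 1364 of the 18194 genes were called. It ran from 0 to 1 when 1 array was left out, and the cause was not tested. The Nos3 difference on the left had a limma adjusted p under 0.05 in 19 of the 28 settings (range 0.00186 to 0.203). Its values did not pass a threshold of 0.01 or a difference of at least 0.5. The call was also lost without any 1 left-ventricle array and with every probe set on its own (limma adjusted p = 0.0565). The term for high-control arrays (-0.87, limma adjusted p = 0.0635) and leaving out the arrays of extreme nuclear RNA (-0.35, limma adjusted p = 0.203) lost it as well. With array medians subtracted 6482 genes were called in the left-ventricle comparison against 5617.

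Signs turned only for differences that were not called. Right minus left in KO turned for Irx4 to 0.0233 with array medians subtracted, to 0.0537 with array weights and to 0.0483 without the arrays of extreme nuclear RNA, and its repeats without 1 array ran from -0.0767 to 0.0483; those of Irx1 ran from -0.155 to 0.0083. In the right-ventricle genotype comparison Irx1 was 0.0619 with array weights and -0.0933 to 0.0617 in the repeats without 1 array. In WT, right minus left turned for Irx3 to -0.0375 with the poly-A control term and for Irx5 to -0.0333 with the term for high-control arrays, and ran from -0.0117 to 0.163 for Irx1 without 1 array. The interaction turned for Irx2 to 0.03 with the term for high-control arrays and ran from -0.275 to 0.025 for Irx6 without 1 array.

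The replicate number as a block, fixed or random, changed no call of Irx1 to Irx5, whose counts stayed 3, 1, 0, 1 and 0 in the 5 comparisons. The comparison of members within arrays was added after seeing the data. Linking the ventricles of one number gave an adjusted p of 0.143 by the exact permutation test for each of the 8 tests called without it. With so few relabelings the linked test could not reach an adjusted p under 0.05 over the 20 tests, so it decides nothing about these calls. It also links ventricles by numbers whose pairing is not settled. With the random block by genotype and number, Irx6 was called between the WT ventricles (0.47), and the genes called between the KO ventricles went from 208 to 331 and between the WT ventricles from 179 to 435.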
